A study of Mus musculus with 12 samples.

Results

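Gonadal white adipose tissue (GWAT) of lean mice without HOIP in adipocytes was set directly against GWAT of obese wild-type mice. HOIP, encoded by Rnf31, is the catalytic subunit of LUBAC, the ligase that builds linear ubiquitin chains. Members of the comparison are the 6 libraries of these groups, 3 of HoipA-KO mice on control diet (CD) and 3 of wild-type (WT) mice on high-fat diet (HFD), out of 12 libraries in the series, and all genes of the count table were considered. No WT CD library entered the comparison. HoipA-KO mice carry both floxed Hoip alleles and an Adipoq.Cre transgene (Hoip fl/fl AdipoQ.Cre+), so deletion is restricted to cells that use the adiponectin promoter and other cells of the tissue keep the gene. WT mice are Cre-negative littermates with the same floxed alleles (Hoip fl/fl AdipoQ.Cre-). Male mice began the diets at 6 weeks of age, stayed on them for 16 weeks and were 22 to 24 weeks old at collection, with 14% fat in the CD and 60% fat in the HFD per the labels. Each library is poly(A) RNA of GWAT pooled from 3 mice, so the spread and the p-values reported here measure differences between pools and not between animals. Per the labels, HoipA-KO tissue was pooled to reach the weight needed for extraction, and WT tissue was pooled in the same way. The groups differ in genotype and in diet at once, and the parts of these factors cannot be told apart in any value below.

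White adipocytes store triglyceride in a single large droplet, secrete hormones such as leptin and adiponectin, and enlarge when energy is in surplus. Adipose tissue under stress of either kind, loss of adipocytes or overfilling of them, is known to recruit macrophages that surround dying adipocytes, take up their lipid and switch on lysosomal genes. Such cells are called lipid-associated macrophages and are marked by Trem2, Cd9, Gpnmb and Spp1, whereas resident tissue macrophages carry Cd163, Lyve1 and Retnla. The question of the comparison is which parts of the transcriptome separate fat that fails to store lipid from fat that stores it in excess, given that the study describes both as inflamed.

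Between 48022027 and 60540260 estimated reads on genes were counted in the HoipA-KO CD libraries and between 30513500 and 54874248 in the WT HFD libraries, with WT HFD replicate 1 the shallowest. Levels are given as CPM, counts of a gene per 1000000 counts of the library, normalised by TMM over the 6 libraries, in the order of replicates 1, 2 and 3, and in pairs joined by "against" HoipA-KO CD comes first. A floor of 3 counts in a library corresponds to 0.0538 to 0.0975 CPM. Log2 fold changes are HoipA-KO CD over WT HFD and carry the standard error of edgeR's model with n = 3 libraries per group. A gene is called where edgeR's quasi-likelihood test gave an adjusted p under 0.05 over all genes tested.

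Libraries of a group resembled each other more than those of the other group. Across the 16743 genes tested, Pearson's r between libraries was 0.982 to 0.993 within HoipA-KO CD, 0.976 to 0.990 within WT HFD and 0.923 to 0.973 between the groups. The first principal component held 72.5% of the variance and separated the groups, with HoipA-KO CD at 35.6, 53.2 and 36.3 and WT HFD at -63.3, -41.7 and -20.0. WT HFD replicate 1 was therefore the library farthest from HoipA-KO CD and WT HFD replicate 3 the nearest, and several results below are spread over the WT HFD pools in this order. Some libraries also stood apart in single gene sets. Epididymal transcripts were present in HoipA-KO CD replicate 3, where Lcn5 was at 0, 0.0538 and 63.5 CPM in HoipA-KO CD and 1.27, 0.167 and 0 CPM in WT HFD. Lymphatic endothelial genes were low in WT HFD replicate 3, with the chemokine Ccl21a at 104, 95.9 and 1.61 CPM in WT HFD against 77.9, 37.5 and 87.7 CPM in HoipA-KO CD. Clock genes stood apart in HoipA-KO CD replicate 2, where Dbp was at 47.3, 11.5 and 73.4 CPM in HoipA-KO CD and 59.8, 30.4 and 52.7 CPM in WT HFD, and Arntl at 8.90, 30.3 and 8.19 against 6.27, 14.9 and 8.72 CPM. The part of these tissue and clock signals in the results was not tested. For many calls and counts that depended on a single library, this is given beside them.

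Of 16743 genes tested, 4610 were called, which is 27.5% of them. In HoipA-KO CD, 2109 genes were higher (12.6%) and 2501 were lower (14.9%), the background for the counts of every list below, and 2487 of the calls exceeded 1 on the log2 scale. The median log2 fold change of all genes tested was 0.03, with quartiles at -0.41 and 0.43. The 3 libraries of HoipA-KO CD were all above or all below the 3 of WT HFD for 24.7% and 23.9% of genes. The number of calls depended on single pools. Without WT HFD replicate 2 it was 1732, with 416 higher and 1316 lower genes, and the WT HFD pools then left, replicates 1 and 3, had the lowest correlation within their group (r = 0.976). Without WT HFD replicate 3 it was 4776, with 2257 higher and 2519 lower genes. It lay between 2188 and 3603 without any 1 of the other 4 libraries. Whichever library was left out, 1174 of the 2501 lower genes but 388 of the 2109 higher genes kept their call. The lists below were chosen with earlier results of these data known, so their counts describe the members and are not a test. Where a list below is given with 6 counts in a row, these are its calls with 1 library left out, in the order HoipA-KO CD replicates 1, 2 and 3 and WT HFD replicates 1, 2 and 3. For the gene lists below with no gene called in one direction, an unadjusted p under 0.05 in edgeR gave at most 2 genes in that direction, DESeq2's Wald test called at most 2, and edgeR's fits without 1 library called at most 2. Some genes belong to more than 1 list, among them Cfd, Lep and Ctsd, and their calls count in each. In bulk tissue, fewer cells of a type and less RNA per cell cannot be told apart, which applies to every cell-type gene below.

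**Figure D1:**
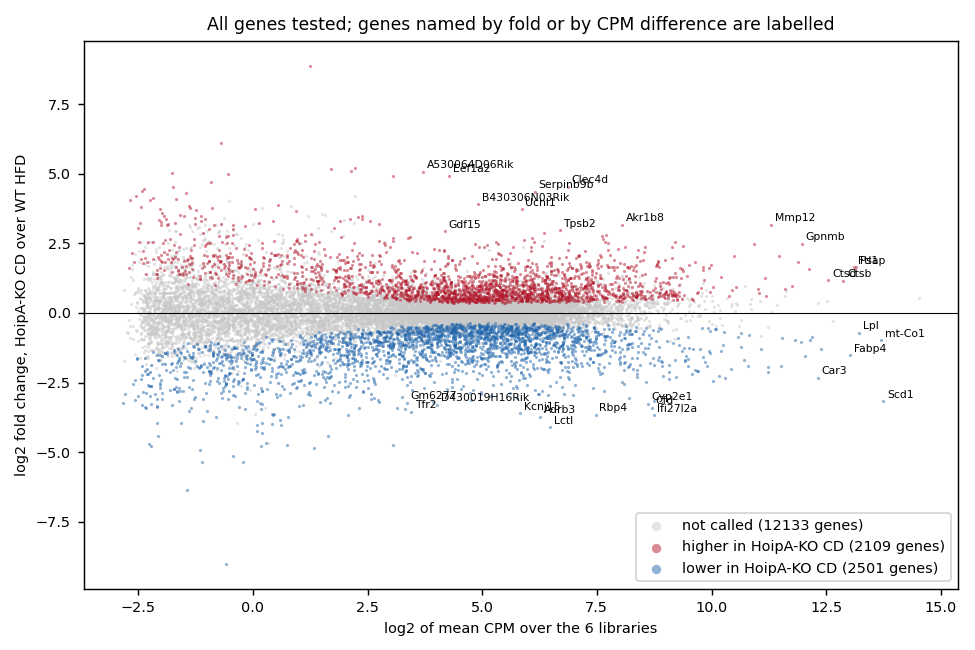
Log2 fold change of HoipA-KO CD over WT HFD (y) against the log2 of the mean CPM over the 6 libraries (x) for the 16743 genes tested, with the 2109 genes called higher in red, the 2501 called lower in blue and the rest in grey. Labels mark the genes named by fold or by difference in CPM, with Eef1a2 at 4.93 far above 0 and Lctl at -4.10 far below it.

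The 10 largest rises, among called genes with a mean of at least 10 CPM and no overlap between the groups, mixed neuronal, myeloid, mast cell and stress genes. Eef1a2, the form of a translation elongation factor known from muscle and neurons, was at 38.6, 39.0 and 35.7 CPM in HoipA-KO CD and 0.520, 1.61 and 1.44 CPM in WT HFD, a 30.6-fold rise (log2 fold change 4.93 ± 0.34, adjusted p = 0.0011). Uchl1, a ubiquitin hydrolase best known from neurons, was at 98.5, 113 and 113 against 7.41, 7.52 and 9.67 CPM (3.72 ± 0.16, adjusted p = 0.00052). Both were nearly constant over the HoipA-KO CD pools. Clec4d, a C-type lectin receptor of myeloid cells, was at 189.7, 307 and 174 against 4.49, 7.37 and 17.0 CPM (4.53 ± 0.53, adjusted p = 0.0021). Mmp12, the macrophage elastase, reached 4216, 6098 and 3291 CPM in HoipA-KO CD and 198, 387 and 928 CPM in WT HFD (3.17 ± 0.57, adjusted p = 0.0081). Gdf15, a stress-induced hormone of the TGF-β family, was at 29.3, 33.6 and 34.3 against 1.495, 4.20 and 6.85 CPM (2.93 ± 0.45, adjusted p = 0.0050). The aldo-keto reductase Akr1b8 (3.16), the serpin Serpinb9b (4.34), the mast cell tryptase Tpsb2 (2.96) and the unnamed loci A530064D06Rik (5.07) and B430306N03Rik (3.90) completed these 10 genes. Leaving out 1 library at a time, the highest adjusted p of Serpinb9b and Tpsb2 came without WT HFD replicate 2, at 0.051 and 0.11, and the calls were kept in 5 and 2 of the 6 fits.

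Several adipocyte genes were among the 10 largest falls, chosen by the same rule. Adrb3, the β3-adrenergic receptor that starts lipolysis in rodent fat, was at 9.28, 9.03 and 14.1 CPM in HoipA-KO CD and 149, 181 and 98.0 CPM in WT HFD, 13.2-fold lower (-3.72 ± 0.29, adjusted p = 0.0011). Lctl, a protein of the Klotho family, was at 8.16, 11.4 and 10.1 against 137, 181 and 190.2 CPM and had the largest fall of the 10 (-4.10 ± 0.21, adjusted p = 0.00070). Rbp4, the retinol carrier that adipocytes secrete, was at 26.8, 11.1 and 41.0 against 408, 369.7 and 214 CPM (-3.65 ± 0.50, adjusted p = 0.0034). Ifi27l2a, an interferon-inducible mitochondrial protein, was at 60.9, 48.9 and 76.9 against 930.3, 824 and 628 CPM (-3.67 ± 0.24, adjusted p = 0.0011). In each of these 4 genes the pools of the groups were separated by a wide gap. The others were the potassium channel Kcnj15 (-3.60), transferrin receptor 2 (Tfr2, -3.56), adipsin (Cfd, -3.41), the cytochrome Cyp2e1 (-3.26) and the loci D430019H16Rik (-3.30) and Gm6277 (-3.22). When single libraries were dropped, the highest adjusted p of Cyp2e1 came without WT HFD replicate 2, at 0.091, and the call was kept in 1 of the 6 fits.

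By difference in level rather than by fold, genes of lysosomes and iron storage stood at one end and, with a mitochondrially encoded gene, genes of adipocyte metabolism at the other. The 5 genes with the largest gain in CPM were Psap, Ftl1, Ctsb, Gpnmb and Ctsd, and the 5 with the largest loss were Scd1, mt-Co1, Fabp4, Car3 and Lpl. Scd1, the desaturase that makes oleate, was at 4164, 1027 and 3029.7 CPM in HoipA-KO CD and 31461, 23991 and 18634 CPM in WT HFD. Psap, the precursor of the lysosomal saposins, was at 13372, 15172 and 12730.2 CPM in HoipA-KO CD and 2610.1, 4332 and 6312 CPM in WT HFD. Neither gene overlapped between the groups, and HoipA-KO CD replicate 2 had the lowest Scd1 and the highest Psap.

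Transcripts of the targeted gene overlapped between the groups. Rnf31 was at 17.7, 17.9 and 21.5 CPM in HoipA-KO CD and 18.1, 17.6 and 19.4 CPM in WT HFD, and the log2 fold change was 0.05 ± 0.13 with a 95% confidence interval of -0.25 to 0.35 (adjusted p = 0.80). Since only adipocytes lose the floxed exons and other cells of the tissue use the gene, this level does not check the genotype. Of the LUBAC partners, Sharpin was at 33.5, 33.2 and 39.0 against 25.2, 24.9 and 24.8 CPM (0.50 ± 0.11, adjusted p = 0.019), while Rbck1, which encodes HOIL-1, was not called (0.16 ± 0.14, adjusted p = 0.43). Otulin, the deubiquitinase that removes linear chains, was at 42.7, 45.1 and 42.1 against 25.5, 25.2 and 28.5 CPM (0.71 ± 0.11, adjusted p = 0.0052). Sharpin and Otulin therefore rose in HoipA-KO CD, each by less than 1 on the log2 scale. In fits without 1 of the 6 libraries, the highest adjusted p of Sharpin came without WT HFD replicate 2, at 0.094, and the call was kept in 3 of the 6 fits.

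All 12 adipocyte markers tested were called lower in HoipA-KO CD, with a median log2 fold change of -1.59 against 0.03 over all genes tested and 14.9% of all genes called lower. Adipoq, the adiponectin gene, was at 452, 300.0 and 490.1 CPM in HoipA-KO CD and 2439.9, 2189 and 1634 CPM in WT HFD (-2.33 ± 0.25, adjusted p = 0.0018). Plin1, the perilipin that coats the droplet, was at 332, 243 and 400.4 against 1132, 1110.4 and 873 CPM (-1.68 ± 0.22, adjusted p = 0.0031). The transcription factor Pparg was at 97.2, 68.0 and 82.9 against 223, 143 and 135 CPM (-1.02 ± 0.23, adjusted p = 0.019). None of these overlapped between the groups. The markers did not fall evenly. Lpl, the lipase that releases fatty acids from lipoproteins and is also used by macrophages, was at 6569.9, 9042 and 6089 against 11840.5, 12578 and 11254 CPM (-0.72 ± 0.20, adjusted p = 0.037). The log2 fold change was -1.52 for the fatty acid binding protein Fabp4, -2.33 for the carbonic anhydrase Car3 and -3.41 for Cfd. Each marker had at least 1183 counts in every library, far above the floor, so adipocyte RNA was reduced and not absent. With single libraries left out, the number of markers called lower was 10, 12 and 10 without HoipA-KO CD replicates 1, 2 and 3 and 10, 9 and 12 without WT HFD replicates 1, 2 and 3. Across the 6 fits lacking 1 library, the highest adjusted p of Lpl came without HoipA-KO CD replicate 1, at 0.13, and the call was kept in 2 of the 6 fits. On dropping each library in turn, the highest adjusted p of Pparg came without HoipA-KO CD replicate 3, at 0.057, and the call was kept in 5 of the 6 fits.

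Most adipokines fell. Of 11 tested, 9 were lower and none higher, and the median was -2.33. Lep, encoding leptin, was at 875, 815 and 1018 CPM in HoipA-KO CD and 5248, 3413 and 3029.6 CPM in WT HFD (-2.11 ± 0.25, adjusted p = 0.0022), and WT HFD replicate 1 was the highest pool. Retn, encoding resistin, was at 90.3, 30.3 and 116 against 624, 528 and 242 CPM (-2.56 ± 0.54, adjusted p = 0.014), and HoipA-KO CD replicate 2 was the lowest pool. Nampt, encoding visfatin, was not called (log2 fold change -0.09, 95% confidence interval -0.51 to 0.33). Genes known to mark expanding and hypertrophic adipocytes were all called, 10 of 10 lower with a median of -1.87, and each kept its call whichever library was left out. Mest, the imprinted gene that tracks fat mass expansion, was at 98.7, 59.5 and 101 against 1057, 649.5 and 609.7 CPM (-3.16 ± 0.31, adjusted p = 0.0015). Cav1, the main protein of the caveolae that are dense in large adipocytes, was at 836, 762 and 807 against 3151, 2497 and 2035 CPM (-1.68 ± 0.20, adjusted p = 0.0022). The natriuretic peptide clearance receptor Npr3 was at 308, 348 and 298 against 1643, 1374 and 1000.0 CPM (-2.07 ± 0.21, adjusted p = 0.0016). Where 1 library was removed, the highest adjusted p of Retn came without WT HFD replicate 2, at 0.054, and the call was kept in 4 of the 6 fits.

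Both the making and the breaking down of triglyceride were represented less in HoipA-KO CD. De novo lipogenesis genes were lower for 12 of 14 tested (median -2.02), triglyceride synthesis genes for 9 of 12 (median -1.75) and lipolysis genes for 11 of 14 (median -1.59), and none of the 3 lists had a gene called higher. Fasn, fatty acid synthase, was at 343, 217 and 423 CPM in HoipA-KO CD and 1863, 2033 and 1406 CPM in WT HFD (-2.43 ± 0.28, adjusted p = 0.0021). Dgat2, which adds the last acyl chain of triglyceride, was at 494, 455 and 691 against 2581, 2356 and 1646 CPM (-2.004 ± 0.25, adjusted p = 0.0024). The lipases Pnpla2 (ATGL) and Lipe (HSL) were lower too, with log2 fold changes of -1.30 ± 0.16 and -1.66 ± 0.22 (adjusted p = 0.0023 and 0.0029). Cd36, the fatty acid transporter that adipocytes and macrophages share, did not follow these genes. It was at 6428, 8842 and 4929 CPM in HoipA-KO CD and 4344, 4879 and 5616 CPM in WT HFD, the groups overlapped, and its log2 fold change was 0.44 ± 0.24 (adjusted p = 0.21). 

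Lipid droplet proteins did not all fall. Cidec, which fuses adipocyte droplets into one, was at 756, 608 and 904 against 2947, 2968 and 2531 CPM (-1.90 ± 0.20, adjusted p = 0.0016), and the adipocyte perilipin Plin4 was lower by a similar size (-2.26). Plin3, a perilipin found in most cells, was called higher at 125, 140.2 and 130.4 against 73.0, 82.8 and 88.3 CPM (0.70 ± 0.13, adjusted p = 0.0097). Plin2, the perilipin known from foam cells, was at 1819, 2924 and 1964 against 622, 1288 and 1501 CPM without overlap but was not called (0.98 ± 0.34, adjusted p = 0.072). In all, 7 of 11 droplet genes were lower and 1 was higher, and the higher calls numbered 2, 1, 1, 1, 0 and 2 with 1 library left out. Genes of insulin signalling and glucose uptake were divided too, with 10 of 13 lower and 2 higher, the latter 1, 1, 1, 2, 0 and 2 with 1 library left out. Slc2a4, encoding GLUT4, was at 38.4, 23.02 and 43.5 against 116, 92.2 and 63.7 CPM (-1.37 ± 0.29, adjusted p = 0.015). Its trafficking regulator Trarg1 was at 149, 89.4 and 131 against 584, 457 and 459 CPM (-2.02 ± 0.22, adjusted p = 0.0018). Akt2, the main insulin-responsive kinase of adipocytes, was lower (-0.97 ± 0.15, adjusted p = 0.0052), whereas the widely expressed Akt1 was higher (0.80 ± 0.16, adjusted p = 0.012). Leaving out 1 library at a time, the highest adjusted p of Plin3, Slc2a4 and Akt1 came without WT HFD replicate 2, at 0.054, 0.057 and 0.071, and the calls were kept in 5, 5 and 5 of the 6 fits.

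Thermogenic genes had low levels in both groups. Ucp1, encoding the uncoupling protein of brown fat, was at 0.118, 0.0179 and 0.241 CPM in HoipA-KO CD and 0.195, 0.481 and 0.244 CPM in WT HFD and was not called (adjusted p = 0.22). Of 10 thermogenic genes, 5 were lower, including Cidea, at 0.179 to 0.563 CPM in HoipA-KO CD and 3.05 to 5.13 CPM in WT HFD, and 1 was higher. The lower calls numbered 3, 3, 3, 3, 3 and 4 with 1 library left out. The gene called higher was the deiodinase Dio2, which activates thyroid hormone, with levels of 5.39, 13.2 and 4.71 against 0.910, 3.30 and 1.77 CPM (1.94 ± 0.55, adjusted p = 0.037). When single libraries were dropped, the highest adjusted p of Dio2 came without HoipA-KO CD replicate 2, at 0.099, and the call was kept in 1 of the 6 fits.

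**Figure D2:**
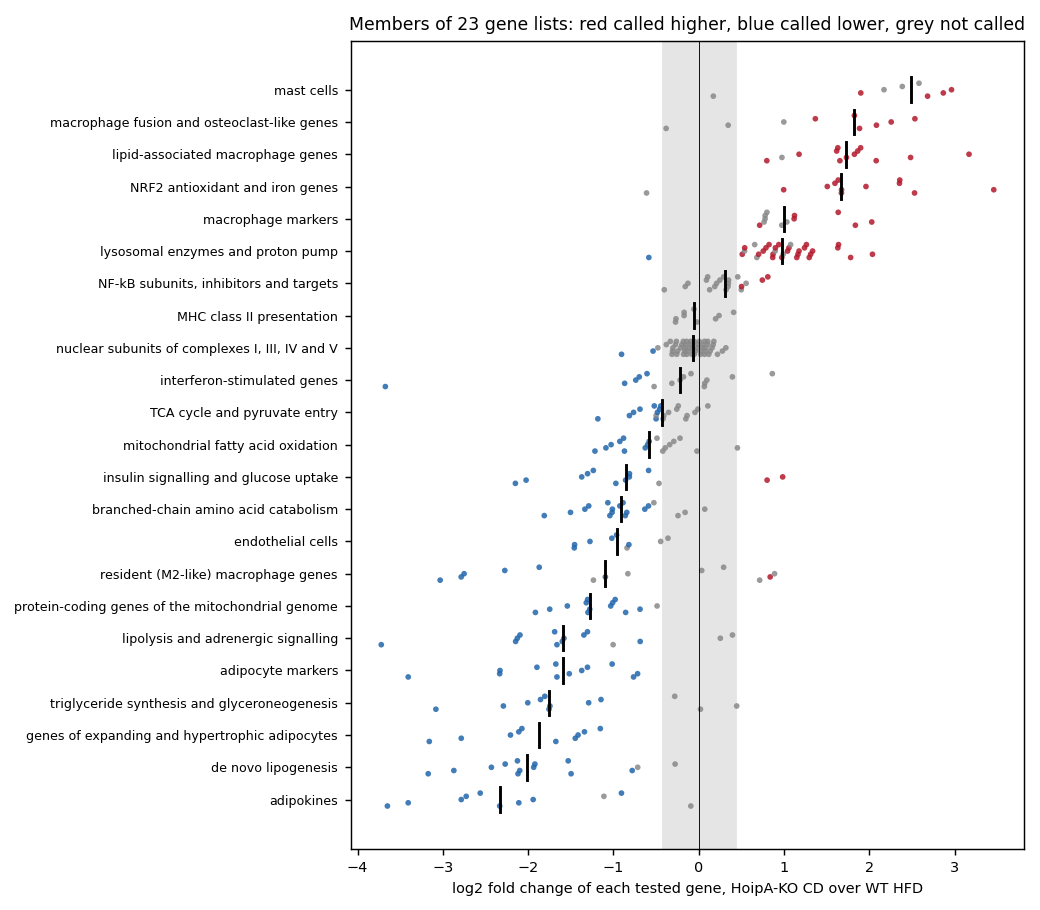
Log2 fold change of each tested member of 23 gene lists (points, fitted over 3 libraries per group), with the median of the list as a black bar and the interquartile range of all 16743 genes, -0.41 to 0.43, as the grey band. Red members were called higher in HoipA-KO CD, blue members lower and grey members were not called. The nuclear respiratory chain genes run from -0.91 to 0.32 with a median of -0.07, while the mitochondrially encoded ones have a median of -1.28.

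Subunits of the respiratory chain were divided by the genome that encodes them. Of the 13 protein-coding genes of mitochondrial DNA, a list added after the values were seen, 12 were lower in HoipA-KO CD and the median was -1.28, whereas of 53 nuclear genes for subunits of complexes I, III, IV and V 2 were lower, none was higher and the median was -0.07. mt-Nd2, a subunit of complex I, was at 1383, 1121 and 1202 CPM in HoipA-KO CD and 5082, 5117 and 3777 CPM in WT HFD (-1.92 ± 0.19, adjusted p = 0.0015). mt-Co1, the catalytic subunit of complex IV, was at 10184, 8212 and 8536 against 19597, 19256 and 14259 CPM (-0.98 ± 0.20, adjusted p = 0.013). mt-Co3 was the gene not called (-0.49 ± 0.20, adjusted p = 0.11). All genes named with the prefix mt-, RNAs that code for no protein included, took 2.88%, 2.13% and 2.53% of the counts in HoipA-KO CD and 6.11%, 5.91% and 4.28% in WT HFD, so the groups did not overlap. The nuclear partners centred near 0. Cox4i1, a subunit of the same complex IV, was at 356, 317 and 445 against 357, 408 and 319 CPM (0.04 ± 0.18, adjusted p = 0.88), and the 2 nuclear genes called lower, named after their values were seen, were Ndufb3 (-0.91) and Atp5b (-0.54). With 1 library left out, the number of mitochondrially encoded genes called was 10, 9 and 8 without HoipA-KO CD replicates 1, 2 and 3 and 10, 6 and 13 without WT HFD replicates 1, 2 and 3, with medians of -1.44 to -1.11. The median of the nuclear subunits stayed between -0.21 and 0.00 in these fits, with 0, 1, 2, 2, 0 and 3 called lower. Libraries were selected for poly(A) RNA, and the part of RNA quality in the mitochondrial share was not tested. In fits without 1 of the 6 libraries, the highest adjusted p of mt-Co1 came without WT HFD replicate 2, at 0.068, and the call was kept in 4 of the 6 fits. For Atp5b it came without the same library, at 0.15, and for Ndufb3 without HoipA-KO CD replicate 1, at 0.054. The calls of Atp5b and Ndufb3 were kept in 2 and 4 of the 6 fits.

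The medians of pathways in the mitochondrial matrix lay between these. Branched-chain amino acid catabolism, which is high in mature adipocytes, was lower for 14 of 18 genes (median -0.91), fatty acid oxidation for 9 of 17 (median -0.58) and the tricarboxylic acid cycle for 9 of 20 (median -0.43). No gene of the 3 lists was called higher. Aldh6a1, which acts in valine breakdown, was at 76.8, 66.4 and 62.8 against 286, 249 and 187 CPM (-1.81 ± 0.19, adjusted p = 0.0017). With each library left out in turn, 10 of the 14 calls in amino acid catabolism, 5 of the 9 in fatty acid oxidation and 1 of the 9 in the tricarboxylic acid cycle held in every fit. The lower calls were 6, 8, 10, 8, 5 and 9 for fatty acid oxidation and 2, 3, 5, 4, 2 and 11 for the tricarboxylic acid cycle with 1 library left out. 

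General macrophage genes were called higher for a part of the list, and the size of the difference depended on the WT HFD pool. All 12 markers had positive estimates and 6 were called (median 1.00). Lgals3, encoding galectin-3, was at 4082, 4703 and 4825 CPM in HoipA-KO CD and 513, 1051 and 1773 CPM in WT HFD (2.03 ± 0.41, adjusted p = 0.012). Cd68 was at 1099.6, 1343 and 1309 against 144, 322 and 584 CPM (1.84 ± 0.45, adjusted p = 0.023). Adgre1, encoding F4/80, was at 481, 674 and 319 against 100.1, 256 and 511 CPM, where WT HFD replicate 3 exceeded 2 of the 3 HoipA-KO CD pools, and it was not called (0.77 ± 0.54, adjusted p = 0.32). Ptprc, encoding the leukocyte antigen CD45, overlapped as well (1.09 ± 0.40, adjusted p = 0.078). Averaged over the markers, log2(CPM + 1) was 8.60, 8.71 and 8.65 in HoipA-KO CD and 6.61, 7.47 and 8.15 in WT HFD, so the range among WT HFD pools, 1.54, was larger than the difference of the group means, 1.25. The count of markers called was 1, 1 and 1 without HoipA-KO CD replicates 1, 2 and 3 and 2, 0 and 11 without WT HFD replicates 1, 2 and 3. Across the 6 fits lacking 1 library, the highest adjusted p of Lgals3 and Cd68 came without WT HFD replicate 2, at 0.063 and 0.095, and the calls were kept in 5 and 2 of the 6 fits.

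Nearly the whole list of lipid-associated macrophage genes was called higher. Of 13, 12 rose and none was lower, and the median was 1.73. Trem2, the lipid receptor that gives these cells their programme, was at 499, 568 and 658 CPM in HoipA-KO CD and 57.2, 142 and 263 CPM in WT HFD (1.90 ± 0.48, adjusted p = 0.027). Gpnmb, a glycoprotein of lysosomes in such cells, was at 6201, 8665 and 5611 against 345, 968 and 2348 CPM (2.48 ± 0.62, adjusted p = 0.025). Itgax, encoding CD11c, was at 558, 592 and 480.2 against 61.1, 132 and 254 CPM (1.86 ± 0.46, adjusted p = 0.023). In all 3 genes the lowest HoipA-KO CD pool lay above the highest WT HFD pool, while the WT HFD pools themselves differed several-fold. The genes that passed numbered 3, 4 and 4 without HoipA-KO CD replicates 1, 2 and 3 and 11, 2 and 13 without WT HFD replicates 1, 2 and 3, and 2 of the 12 calls, those of Mmp12 and Cd63, held in every one of these fits. Genes of macrophage fusion and osteoclast-like cells were higher for 6 of 9 (median 1.83), and 5, 5, 5, 6, 4 and 7 were with 1 library left out. Ctsk, the collagen-degrading cathepsin K, was at 872, 1180.4 and 973 against 76.2, 161 and 284 CPM (2.53 ± 0.44, adjusted p = 0.0075). The fusion receptor Dcstamp was at 24.1, 43.6 and 21.9 against 2.54, 5.55 and 10.5 CPM (2.26 ± 0.50, adjusted p = 0.017). Acp5, the tartrate-resistant phosphatase that marks osteoclasts, was not among the genes called (-0.38 ± 0.18, adjusted p = 0.16). The calcitonin receptor Calcr, another osteoclast marker, had 0 counts in all 6 libraries, which allows up to 0.0538 to 0.0975 CPM at a floor of 3 counts. On dropping each library in turn, the highest adjusted p of Trem2, Gpnmb, Itgax and Dcstamp came without WT HFD replicate 2, at 0.10, 0.10, 0.096 and 0.074, and the calls were kept in 2, 2, 2 and 5 of the 6 fits.

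Among resident macrophage genes, falls outnumbered rises. Of 13, 6 were lower in HoipA-KO CD and 1 was higher, with a median of -1.09. With 1 library left out, 4, 4, 4, 6, 4 and 8 were lower and 0, 1, 1, 1, 0 and 2 higher. Cd163, the haemoglobin scavenger receptor, was at 7.55, 6.95 and 7.08 CPM in HoipA-KO CD and 50.5, 54.2 and 40.6 CPM in WT HFD (-2.75 ± 0.15, adjusted p = 0.00071). The 3 HoipA-KO CD pools lay close together and far below those of WT HFD. Retnla was at 22.3, 11.4 and 26.1 against 159, 149.7 and 103 CPM (-2.79 ± 0.33, adjusted p = 0.0022). The lectin Cd209d was at 1.12, 0.682 and 1.01 against 8.55, 11.1 and 3.37 CPM (-3.03 ± 0.46, adjusted p = 0.0048). Lyve1 was at 9.73, 7.75 and 10.9 against 48.0, 42.9 and 13.2 CPM (-1.87 ± 0.44, adjusted p = 0.020). For Cd209d and Lyve1, WT HFD replicate 3 was the lowest WT HFD pool but still above every HoipA-KO CD pool. Mrc1, the mannose receptor CD206 often counted with these genes, was at 343, 575 and 249 against 144, 206 and 281 CPM and was not called (0.89 ± 0.35, adjusted p = 0.097). The member called higher was Gas6, a ligand for the uptake of dead cells (0.84 ± 0.17, adjusted p = 0.013). Where 1 library was removed, the highest adjusted p of Gas6 came without HoipA-KO CD replicate 1, at 0.055, and the call was kept in 4 of the 6 fits. Leaving out 1 library at a time, the highest adjusted p of Lyve1 came without WT HFD replicate 2, at 0.074, and the call was kept in 2 of the 6 fits.

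**Figure D3:**
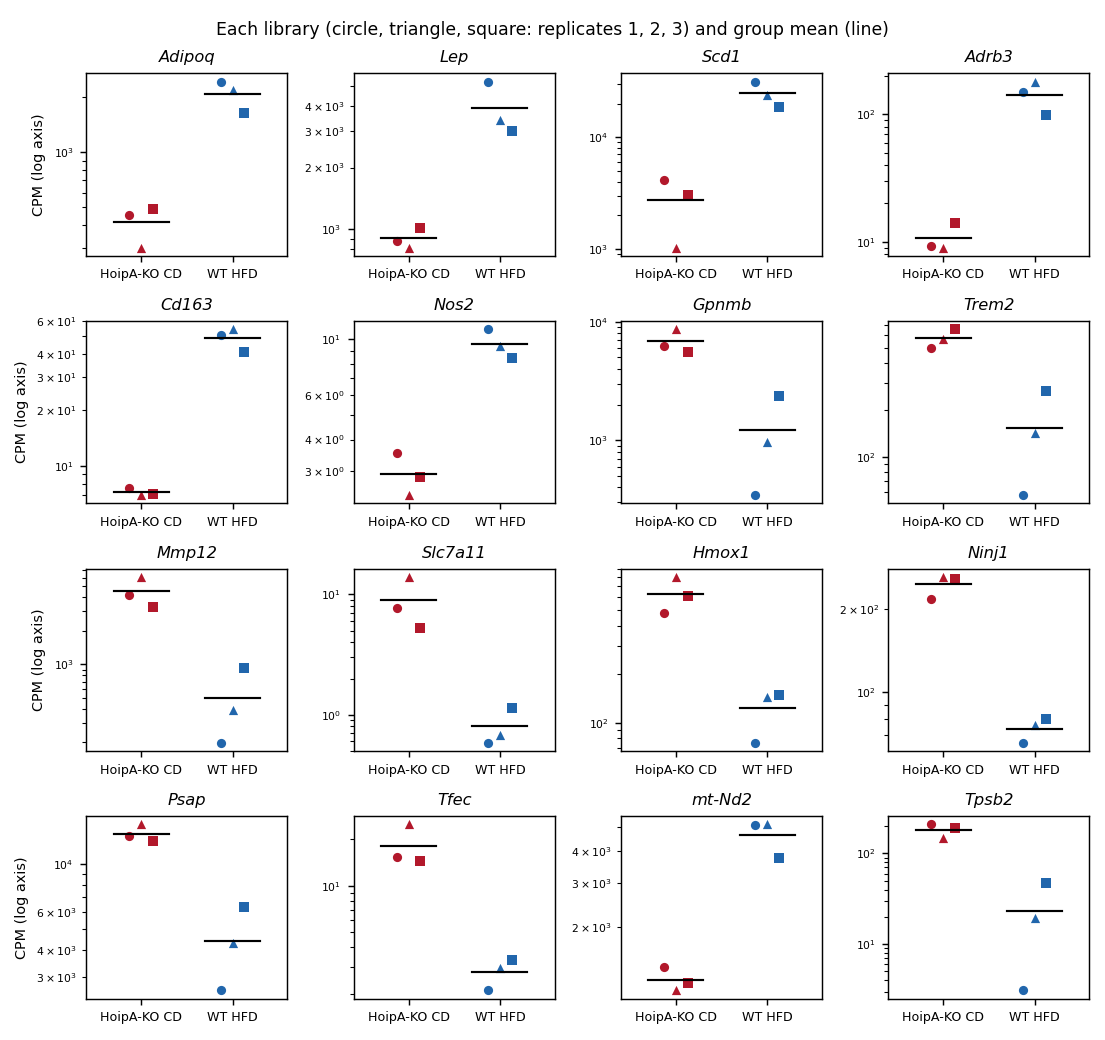
CPM on a log axis in each of the 3 HoipA-KO CD libraries (red) and 3 WT HFD libraries (blue) for 16 genes, with the group mean as a line and circles, triangles and squares for replicates 1, 2 and 3. The groups do not overlap for any of these genes, while Gpnmb, Trem2, Mmp12 and Tpsb2 are spread widely over the WT HFD libraries and Cd163, Ninj1 and mt-Nd2 are not.

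Most lysosomal genes rose. Of 32 genes for lysosomal enzymes, membrane proteins and the proton pump, 25 were higher in HoipA-KO CD and 1 was lower, with a median of 0.98, against 12.6% of all genes called higher. Ctss, encoding cathepsin S of antigen-presenting cells, had the largest log2 fold change of the list, at 2262, 2629.8 and 2015 against 294, 500.4 and 889 CPM (2.04 ± 0.38, adjusted p = 0.0096). Psap changed by 1.64 ± 0.32 (adjusted p = 0.011), Ctsb by 1.16 ± 0.30 (adjusted p = 0.027) and Ctsd by 1.18 ± 0.31 (adjusted p = 0.029). Npc2, which hands cholesterol out of the lysosome, was the exception at 839, 901 and 866 against 1139, 1284 and 1487 CPM (-0.59 ± 0.16, adjusted p = 0.031). Summed over the list, the level was 47541, 60337 and 46849 CPM in HoipA-KO CD and 14804, 21552 and 30300.4 CPM in WT HFD. The number of genes called higher was 14, 16 and 19 without HoipA-KO CD replicates 1, 2 and 3 and 19, 3 and 29 without WT HFD replicates 1, 2 and 3, with medians of 0.79 to 1.24. Macrophages are rich in lysosomes, and the part of the higher macrophage marker levels in this rise was not tested. When single libraries were dropped, the highest adjusted p of Npc2 came without HoipA-KO CD replicate 1, at 0.11, and the call was kept in 1 of the 6 fits. In fits without 1 of the 6 libraries, the highest adjusted p of Ctss, Psap, Ctsb and Ctsd came without WT HFD replicate 2, at 0.053, 0.058, 0.11 and 0.11, and the calls were kept in 5, 5, 2 and 2 of the 6 fits.

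The transcription factors of the MiT/TFE family, which switch on lysosomal genes, were all 4 called higher, and 2, 2, 3, 2, 2 and 4 of them were with 1 library left out. Tfec, the member known mainly from macrophages and osteoclasts, was at 15.2, 24.8 and 14.3 CPM in HoipA-KO CD and 2.11, 2.96 and 3.31 CPM in WT HFD (2.69 ± 0.28, adjusted p = 0.0017). Tfeb was at 48.1, 49.2 and 59.0 against 18.3, 23.1 and 27.5 CPM (1.18 ± 0.18, adjusted p = 0.0045). Mitf was at 57.2, 69.4 and 43.9 against 17.5, 22.6 and 39.7 CPM (1.09 ± 0.31, adjusted p = 0.037). Tfe3 was at 91.1, 101 and 91.1 against 58.1, 58.9 and 72.8 CPM (0.58 ± 0.14, adjusted p = 0.022). Across the 6 fits lacking 1 library, the highest adjusted p of Mitf and Tfe3 came without WT HFD replicate 2, at 0.14 and 0.11, and the calls were kept in 1 and 2 of the 6 fits.

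Factors of this family bind the CLEAR element, whose core is the 8-base palindrome TCACGTGA. RefSeq promoters on GRCm38.p6, 250 bases before to 50 after the gene start, were at hand for 23 of the 32 lysosomal genes. The palindrome, which reads the same on both strands, was found in 6 of these 23 (26.1%) and in 304 of 27025 genes with a promoter (1.12%). No other motif was searched. Of the 6 genes with a match 5 were called higher, and of the 17 without one 12 were. The promoters of the 4 most abundant genes called higher that hold a match follow, 5′ to 3′ on the strand of the gene, from 250 bases before the start to the start or, where a match reaches past it, to the end of that match, with the palindrome in capitals.
Ctsd, GRCm38.p6 chr7:142387828-142388077, minus strand: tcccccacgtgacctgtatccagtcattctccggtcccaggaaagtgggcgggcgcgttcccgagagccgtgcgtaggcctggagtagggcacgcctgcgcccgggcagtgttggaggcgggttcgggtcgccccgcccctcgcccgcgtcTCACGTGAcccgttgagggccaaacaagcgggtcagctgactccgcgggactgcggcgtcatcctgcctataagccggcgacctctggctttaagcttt
Ctsa, GRCm38.p6 chr2:164833523-164833784, plus strand: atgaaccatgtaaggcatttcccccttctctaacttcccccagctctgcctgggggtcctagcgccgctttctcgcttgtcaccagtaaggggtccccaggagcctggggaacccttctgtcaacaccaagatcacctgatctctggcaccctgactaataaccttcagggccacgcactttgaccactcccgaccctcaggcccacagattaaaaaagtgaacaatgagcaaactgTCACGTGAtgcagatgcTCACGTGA
Atp6v0d1, GRCm38.p6 chr8:105566061-105566314, minus strand: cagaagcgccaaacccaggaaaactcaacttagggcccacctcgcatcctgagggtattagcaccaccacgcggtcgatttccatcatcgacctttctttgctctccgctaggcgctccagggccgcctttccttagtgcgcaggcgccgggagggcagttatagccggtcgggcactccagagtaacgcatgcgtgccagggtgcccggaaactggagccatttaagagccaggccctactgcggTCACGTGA
Gla, GRCm38.p6 chrX:134601006-134601255, minus strand: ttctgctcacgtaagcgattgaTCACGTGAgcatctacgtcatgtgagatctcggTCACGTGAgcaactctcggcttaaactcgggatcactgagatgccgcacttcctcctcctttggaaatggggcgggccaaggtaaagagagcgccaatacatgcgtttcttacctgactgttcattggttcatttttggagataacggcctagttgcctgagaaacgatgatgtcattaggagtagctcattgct
Ctsd and Atp6v0d1 hold 1 match each, while Ctsa and Gla hold 2. Ctsd encodes cathepsin D, Ctsa the protective protein cathepsin A, Atp6v0d1 a subunit of the lysosomal proton pump and Gla the α-galactosidase that clears globotriaosylceramide. In level, Gla was at 121, 177 and 107 CPM in HoipA-KO CD and 21.5, 35.9 and 60.5 CPM in WT HFD (log2 fold change 1.78 ± 0.38, adjusted p = 0.014). Ctsa was at 681, 852 and 751 against 195, 293 and 464 CPM (1.26 ± 0.30, adjusted p = 0.022). Atp6v0d1 was at 199.6, 239 and 204 against 134, 159 and 159 CPM (0.51 ± 0.14, adjusted p = 0.036). On dropping each library in turn, the highest adjusted p of Atp6v0d1 came without WT HFD replicate 1, at 0.12, and the call was kept in 0 of the 6 fits. Where 1 library was removed, the highest adjusted p of Gla and Ctsa came without WT HFD replicate 2, at 0.067 and 0.094, and the calls were kept in 5 and 2 of the 6 fits. A match describes the letters only, and binding was not measured.

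A list of antioxidant genes, most of them known NRF2 targets, and of iron-handling genes rose with little dependence on single libraries. Of 12, 11 were higher in HoipA-KO CD and none was lower, the median was 1.67, and 10 of the 11 calls held whichever library was left out, against 388 of all 2109 genes called higher. Slc7a11, the cystine importer that feeds glutathione synthesis, was at 7.65, 14.0 and 5.21 CPM in HoipA-KO CD and 0.585, 0.685 and 1.14 CPM in WT HFD (3.46 ± 0.44, adjusted p = 0.0027). Srxn1, which reactivates peroxiredoxins, was at 312, 497 and 282 against 52.8, 63.2 and 72.9 CPM (2.53 ± 0.26, adjusted p = 0.0015). The haem oxygenase Hmox1 was at 478, 802 and 610.4 against 75.2, 145 and 149 CPM (2.36 ± 0.31, adjusted p = 0.0032). In all 3 genes the HoipA-KO CD pools lay far above those of WT HFD, and HoipA-KO CD replicate 2 was the highest. Ferritin, which stores iron, was abundant. Its light chain Ftl1 was at 11611, 14516 and 13991 against 3027, 4256 and 5628 CPM (1.64 ± 0.26, adjusted p = 0.0052). Its heavy chain Fth1 was at 6469, 7281 and 6516 against 2013, 2206 and 2480.2 CPM (1.597 ± 0.17, adjusted p = 0.0017). Both the iron exporter Slc40a1 (2.35 ± 0.26, adjusted p = 0.0018) and the importer Tfrc (1.67 ± 0.33, adjusted p = 0.012) were higher. Gpx4, the peroxidase that removes lipid peroxides, was the member not called, at 425, 388 and 542 against 767, 776 and 528 CPM with a negative estimate (-0.61 ± 0.21, adjusted p = 0.066). Averaged over the list, log2(CPM + 1) was 7.69, 8.21 and 7.67 in HoipA-KO CD and 6.06, 6.30 and 6.31 in WT HFD, so the range among WT HFD pools, 0.25, was small beside the difference of the group means, 1.63. Macrophages also use several of these genes, and the part of macrophage RNA in their rise was not tested. 

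**Figure D4:**
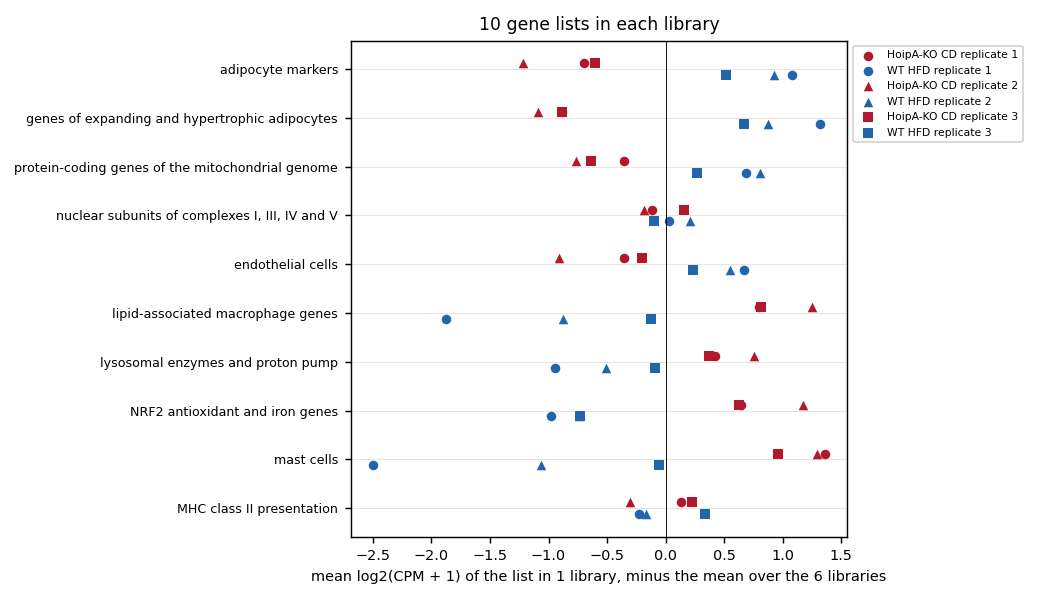
Mean log2(CPM + 1) of 10 gene lists in each library, minus the mean over the 6 libraries (x), for HoipA-KO CD (red) and WT HFD (blue) with circles, triangles and squares for replicates 1, 2 and 3. The WT HFD libraries lie close together for the list of NRF2 targets and iron genes, span 1.76 for lipid-associated macrophage genes and 2.44 for mast cell genes, and overlap with HoipA-KO CD for MHC class II and for nuclear respiratory chain genes.

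Inflammatory mediators differed gene by gene. Of 15 cytokine and mediator genes tested, 7 were higher in HoipA-KO CD and 1 was lower (median 1.24), beside 12.6% of all genes called higher and 14.9% lower. With 1 library left out, 3, 4, 6, 4, 1 and 7 were higher and 1, 1, 2, 1, 1 and 2 lower. Tnf was at 4.20, 2.84 and 3.98 CPM in HoipA-KO CD and 0.943, 1.04 and 1.52 CPM in WT HFD (1.64 ± 0.29, adjusted p = 0.0080). Il1rn, the decoy ligand of the interleukin-1 receptor, was at 93.4, 234 and 84.4 against 27.4, 41.8 and 59.8 CPM (1.67 ± 0.45, adjusted p = 0.031). Tgfb1 was at 189, 204 and 191 against 56.7, 75.02 and 113 CPM (1.25 ± 0.24, adjusted p = 0.011). Nos2, the inducible nitric oxide synthase used as a marker of classical activation, was lower, at 3.55, 2.40 and 2.84 against 10.99, 9.42 and 8.45 CPM (-1.71 ± 0.21, adjusted p = 0.0024). Il6 stayed under 1 CPM in all 6 libraries and was not tested, and Il1b was not called (0.75 ± 0.47, adjusted p = 0.26). Leaving out 1 library at a time, the highest adjusted p of Tnf, Il1rn and Tgfb1 came without WT HFD replicate 2, at 0.052, 0.11 and 0.060, and the calls were kept in 5, 2 and 5 of the 6 fits.

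Of 22 chemokine genes, 7 were higher and 2 lower (median 0.31), against 12.6% of all genes called higher and 14.9% lower. These counts rested on single libraries, since 1, 5, 1, 6, 1 and 9 were higher and 1, 1, 0, 1, 0 and 2 lower with 1 library left out. Ccl9, a macrophage chemokine, was at 792, 1308 and 849 CPM in HoipA-KO CD and 187, 347 and 507 CPM in WT HFD (1.502 ± 0.37, adjusted p = 0.024). Cxcl2, which attracts neutrophils, was at 2.98, 2.33 and 3.64 against 0.585, 0.796 and 0.874 CPM (1.98 ± 0.30, adjusted p = 0.0047). Ccl2, the monocyte attractant raised in obese fat, overlapped at 24.4, 48.3 and 25.9 against 24.3, 31.3 and 21.2 CPM and was not called (0.36 ± 0.28, 95% confidence interval -0.30 to 1.02, adjusted p = 0.37). The interferon-γ target Cxcl9 was lower (-1.63 ± 0.35, adjusted p = 0.015). Interferon-stimulated genes as a list had 5 of 15 lower and none higher (median -0.22), with Ifi27l2a among them, and 3, 3, 2, 2, 1 and 4 were lower with 1 library left out. MHC class II genes gave no call among 9 in edgeR's test (median -0.06), and 0 passed an unadjusted p under 0.05 or DESeq2's test. Their median was -0.26 without WT HFD replicate 1 and 0.30 without WT HFD replicate 3, where 1 gene was called higher. Cd74, the invariant chain, was at 1269, 908 and 1248 against 700.4, 876 and 1410.0 CPM with a 95% confidence interval of -0.45 to 0.85 for its log2 fold change. When single libraries were dropped, the highest adjusted p of Ccl9 and Cxcl9 came without WT HFD replicate 2, at 0.091 and 0.062, and the calls were kept in 2 and 4 of the 6 fits.

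Of 20 NF-κB subunits, inhibitors and targets, 3 were higher and none was lower (median 0.31), a share close to the 12.6% of all genes called higher. With 1 library left out, 2, 2, 2, 2, 1 and 4 were higher. Of 10 genes of the TNF receptor list 1 was higher and 2 were lower, shares close to the 12.6% and 14.9% of all genes. Where 1 library was left out, 0, 0, 1, 1, 0 and 3 were higher and 1, 2, 1, 1, 1 and 1 lower. Tnfrsf1b, the form used by leukocytes, was higher at 236, 288 and 198 against 55.4, 86.2 and 139 CPM (1.37 ± 0.33, adjusted p = 0.021). Tnfrsf1a, the death-domain receptor found on most cells, was not called (0.16 ± 0.13, adjusted p = 0.36), and the death receptor Fas was lower at 13.5, 12.2 and 13.1 against 33.7, 32.2 and 26.2 CPM (-1.25 ± 0.14, adjusted p = 0.0018). In fits without 1 of the 6 libraries, the highest adjusted p of Tnfrsf1b came without WT HFD replicate 2, at 0.090, and the call was kept in 3 of the 6 fits.

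Of 14 genes of extrinsic apoptosis and necroptosis, 3 were called higher and none lower (median 0.21), beside 12.6% of all genes called higher. With 1 library left out, 2, 3, 2, 2, 0 and 4 were higher, with medians of 0.096 to 0.25. Ripk3, the kinase of necroptosis, was at 20.2, 27.6 and 23.3 CPM in HoipA-KO CD and 9.39, 11.3 and 15.3 CPM in WT HFD (0.98 ± 0.21, adjusted p = 0.015). Its effector Mlkl was at 26.2, 34.5 and 25.7 against 18.5, 18.1 and 15.2 CPM (0.74 ± 0.16, adjusted p = 0.015). Casp8 was at 67.4, 92.0 and 69.6 against 54.2, 65.3 and 62.4 CPM without overlap but did not pass (0.33 ± 0.16, adjusted p = 0.16), and Ripk1 overlapped (0.33 ± 0.21, adjusted p = 0.27). Of 13 inflammasome and pyroptosis genes, 6 were higher and 1 was lower (median 0.98), and 4, 4, 4, 5, 2 and 7 were higher with 1 library left out. Ninj1, which tears the plasma membrane open late in lytic death, was at 218, 262 and 258 against 65.6, 76.0 and 80.1 CPM (1.73 ± 0.15, adjusted p = 0.0012) and was called whichever library was left out. The gasdermins parted, with Gsdmd higher (0.83 ± 0.15, adjusted p = 0.0078) and Gsdme, which caspase-3 cleaves, lower at 7.28, 6.62 and 6.92 against 16.2, 16.2 and 13.4 CPM (-1.14 ± 0.14, adjusted p = 0.0027). The BCL2 family had 7 of 16 higher and 2 lower, and with 1 library left out 2, 4, 2, 3, 1 and 8 higher and 1, 1, 1, 1, 1 and 2 lower. The higher genes held both Bax (0.98 ± 0.21, adjusted p = 0.015) and its antagonist Bcl2l1 (0.64 ± 0.16, adjusted p = 0.022). Across the 6 fits lacking 1 library, the highest adjusted p of Ripk3, Mlkl, Bax and Bcl2l1 came without WT HFD replicate 2, at 0.070, 0.055, 0.068 and 0.12, and the calls were kept in 5, 5, 4 and 2 of the 6 fits.

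Mast cell genes had a median log2 fold change of 2.48, and 4 of 8 were higher. With 1 library left out, 1, 1, 1, 6, 1 and 7 were higher, with medians of 1.99 to 3.78. The tryptase Tpsb2 was at 208, 149 and 192 CPM in HoipA-KO CD and 3.09, 19.5 and 47.6 CPM in WT HFD (2.96 ± 0.79, adjusted p = 0.031). The chymase Cma1 was at 156, 137 and 134 against 2.86, 16.1 and 39.2 CPM (2.87 ± 0.75, adjusted p = 0.029). The protease Mcpt4 was at 143, 155 and 123 against 2.08, 17.6 and 50.5 CPM (2.58 ± 0.87, adjusted p = 0.062). WT HFD pools differed more than 10-fold in each of these genes, with replicate 1 the lowest, and Mcpt4 was not called. Hdc, the enzyme that makes histamine, was at 16.4, 14.2 and 16.1 against 4.78, 3.67 and 4.10 CPM (1.90 ± 0.16, adjusted p = 0.0012) and was steady in WT HFD, and Kit, the receptor that mast cells share with other cells, was not called (0.17). The summed level of the list was 679.9, 622 and 568 CPM in HoipA-KO CD and 31.9, 91.8 and 214 CPM in WT HFD. On dropping each library in turn, the highest adjusted p of Tpsb2 and Cma1 came without WT HFD replicate 2, at 0.11 and 0.11, and the calls were kept in 2 and 2 of the 6 fits.

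Lists of other immune cells gave at most 1 call each, beside 12.6% of all genes called higher and 14.9% lower. T cell genes had 1 of 9 higher, the coreceptor Cd4 (adjusted p = 0.037), and 0, 1, 0, 1, 0 and 0 with 1 library left out. The T cell receptor chain Cd3e was at 2.53, 0.700 and 2.37 against 2.44, 0.981 and 1.16 CPM and was not called. Regulatory T, B and natural killer cell lists gave 0 calls in edgeR's test among 6, 6 and 6 genes, 2, 0 and 1 at an unadjusted p under 0.05, and 2, 0 and 0 in DESeq2's test. Monocyte genes had 1 of 6 higher (0, 1, 0, 0, 0 and 1 with 1 library left out), and the markers Ccr2 (0.02) and Ly6c2 (0.25) were not called. Neutrophil genes had 1 of 3 tested higher (0, 1, 1, 1, 0 and 1 with 1 library left out), with log2 fold changes from -1.12 to 1.03 over the list. Ly6g, the defining marker of neutrophils, was at or under the floor of 3 counts in all 6 libraries. Genes of dividing cells all had positive estimates and 4 of 12 were called (1, 1, 1, 2, 0 and 6 with 1 library left out), with Pcna at 207, 279.9 and 203 against 64.2, 103 and 132 CPM (1.21 ± 0.27, adjusted p = 0.018). Mki67 was at 65.0, 132 and 69.2 against 35.3, 59.4 and 72.1 CPM (0.68 ± 0.35, adjusted p = 0.18). Where 1 library was removed, the highest adjusted p of Pcna and Cd4 came without WT HFD replicate 2, at 0.072 and 0.12, and the calls were kept in 5 and 2 of the 6 fits.

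Most endothelial genes fell. Of 9 endothelial markers 6 were lower and none was higher (median -0.96), and 3, 6, 6, 4, 3 and 7 were lower with 1 library left out. Kdr, the VEGF receptor 2, was at 43.1, 44.7 and 43.3 CPM in HoipA-KO CD and 123, 130.1 and 107 CPM in WT HFD (-1.46 ± 0.13, adjusted p = 0.0012). Cdh5, the cadherin of endothelial junctions, was at 108, 81.7 and 119.8 against 311, 262 and 277 CPM (-1.46 ± 0.18, adjusted p = 0.0024). Vegfa, the ligand of Kdr that adipocytes are known to secrete, was lower as well (-1.72 ± 0.23, adjusted p = 0.0030). Mural cell genes were lower for 3 of 9, beside 14.9% of all genes, with the pericyte gene Rgs5 at 126, 56.2 and 104 against 312, 304 and 189 CPM (-1.50 ± 0.32, adjusted p = 0.016). The lower calls of the mural list were 3, 3, 2, 3, 2 and 4 with 1 library left out. Progenitor genes had 2 of 12 higher and 3 lower, beside 12.6% and 14.9% of all genes, and Pdgfra, the marker of adipocyte precursors, was not called (0.52 ± 0.25, adjusted p = 0.16). Leaving out 1 library at a time, the highest adjusted p of Rgs5 came without WT HFD replicate 2, at 0.065, and the call was kept in 4 of the 6 fits.

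Of 24 matrix genes 5 were lower and none was higher (median -0.25), beside 14.9% of all genes called lower. With 1 library left out, 3, 9, 4, 5, 4 and 5 were lower and 0, 0, 0, 0, 0 and 2 higher, with medians of -0.42 to -0.15. The fibrillar collagen Col3a1 was at 2238, 4442 and 2446 CPM in HoipA-KO CD and 1454, 2686 and 3337 CPM in WT HFD with overlap (0.29 ± 0.37, adjusted p = 0.59). Sparc, a collagen-binding protein that adipocytes secrete, was lower at 2831, 3045 and 3352 against 6113, 6062 and 5847 CPM (-0.97 ± 0.16, adjusted p = 0.0057). Col14a1, a collagen that lies on fibrils, was at 27.9, 37.7 and 24.5 against 76.3, 99.9 and 99.3 CPM (-1.61 ± 0.20, adjusted p = 0.0024). Among 16 proteases and inhibitors 6 were higher and 3 lower (median 1.04), with 3, 4, 3, 5, 3 and 9 higher and 1, 3, 2, 2, 2 and 3 lower where 1 library was left out. Besides Mmp12, the metalloproteinase Mmp19 was higher at 464, 806 and 407 against 88.2, 113 and 144 CPM (2.28 ± 0.31, adjusted p = 0.0034). 

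Sugar genes contained isoform pairs that parted. Slc2a1, encoding the glucose transporter GLUT1 of most cells, was higher at 43.3, 60.3 and 48.8 against 19.5, 17.4 and 21.1 CPM (1.39 ± 0.16, adjusted p = 0.0019), against the lower GLUT4 above. Hexokinase Hk3 of myeloid cells was higher at 222, 283 and 246 against 19.0, 49.4 and 91.1 CPM (2.23 ± 0.49, adjusted p = 0.017). The insulin-regulated Hk2 was lower at 31.4, 21.3 and 26.7 against 112, 62.1 and 61.9 CPM (-1.57 ± 0.27, adjusted p = 0.0071). In the list of glycolytic and hypoxia genes, 6 of 18 were higher and 5 lower, beside 12.6% and 14.9% of all genes, the higher ones 6, 5, 4, 5, 2 and 5 with 1 library left out. Of 15 cholesterol synthesis and uptake genes, 3 were higher and 4 lower, beside the same shares, and 0, 3, 3, 1, 0 and 1 were higher with 1 library left out. The epoxidase Sqle was at 40.9, 91.3 and 30.7 against 20.9, 22.9 and 20.7 CPM (1.34 ± 0.37, adjusted p = 0.035). The feedback protein Insig1 was at 119, 141 and 121 against 513, 425 and 351 CPM (-1.76 ± 0.18, adjusted p = 0.0016). HoipA-KO CD replicate 2 was the highest pool for Sqle. When single libraries were dropped, the highest adjusted p of Hk3 and Sqle came without WT HFD replicate 2, at 0.074 and 0.10, and the calls were kept in 4 and 2 of the 6 fits.

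Further lists are given by their counts, beside 12.6% of all genes called higher and 14.9% lower. Genes of the integrated stress response had 2 of 12 higher and 2 lower, the higher ones 0, 0, 0, 2, 0 and 1 with 1 library left out. The p53 targets had 1 of 10 higher and 2 lower, with 1, 1, 0, 1, 0 and 1 higher and 0, 2, 2, 2, 0 and 2 lower where 1 library was left out. Cholesterol efflux and storage genes had 2 of 8 higher and 2 lower, with 0, 1, 1, 1, 0 and 3 higher and 1, 0, 1, 1, 0 and 0 lower where 1 library was left out. Clock genes had 2 of 14 lower, 0, 2, 1, 1, 0 and 2 with 1 library left out. Schwann cell genes had 1 of 5 higher, but all 5 estimates were positive, with a median of 1.66 and no overlap between the groups. All 5 had an unadjusted p under 0.05 in edgeR, and DESeq2's test called 3. Lymphatic genes had 1 of 6 higher and plasma cell genes 1 of 5. With 1 library left out, the Schwann cell count was 1, 1, 1, 1, 2 and 1 and the plasma cell count 1, 1, 1, 2, 0 and 1. Lymphatic genes had 0, 1, 1, 0, 1 and 0 higher in these fits, and without WT HFD replicate 3 they had 2 lower. Muscle genes had 2 of 3 lower (median -2.02, and -2.17 to -1.11 with 1 library left out), and dendritic cell genes 1 of 7, a call lost without WT HFD replicate 2. Mesothelial, epididymal and erythroid lists gave 0 calls in edgeR's test among 8, 2 and 5 genes, and 2, 0 and 0 both at an unadjusted p under 0.05 and in DESeq2's test.

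HoipA-KO mice on HFD share the genotype of one side and the diet of the other, and their levels are set beside the comparison as a description, scaled over 9 libraries. Transcripts of other tissues set pools of this group apart. HoipA-KO HFD replicate 1 was high in the epididymal gene Crisp1, at 1314, 0 and 1.78 CPM in replicates 1, 2 and 3, and in the smooth muscle gene Myh11, at 1454, 53.5 and 72.3 CPM. Replicate 3 held other epididymal transcripts, with Adam7 at 2.11, 0 and 23.4 CPM and Lcn9 at 0, 0 and 19.9 CPM, and the part of these signals in the levels below was not tested. Adipoq was at 374, 203 and 325 CPM in the 3 pools and Adrb3 at 10.6, 2.66 and 10.0 CPM. The mitochondrially encoded mt-Nd2 was at 1542, 1121 and 1021 CPM. These levels were all below every WT HFD pool. Adipoq and Adrb3 in replicate 2 and mt-Nd2 in replicate 3 were also below every HoipA-KO CD pool, while the other levels were near those of HoipA-KO CD. Cd163 was at 14.7, 13.2 and 14.2 CPM, between the groups but nearer to HoipA-KO CD. Trem2 was at 372, 608 and 545 CPM, above every WT HFD pool. Several genes with large rises were uneven there. Uchl1 was at 13.1, 102 and 10.7 CPM and Eef1a2 at 5.28, 29.9 and 2.17 CPM. Mmp12 was at 735, 4723 and 603 CPM and the NRF2 target Srxn1 at 103, 322 and 90.9 CPM. For these 4 genes HoipA-KO HFD replicate 2 alone had levels near those of HoipA-KO CD. These differences were not tested.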

How the data were processed

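GWAT of 12 libraries in 4 groups was sequenced from poly(A) RNA with a stranded kit, and the 6 libraries of HoipA-KO CD and WT HFD were compared. The authors trimmed reads with Trim Galore 0.6.7, aligned them with STAR 2.7.10a and quantified them with Salmon 1.5.2, and deposited estimated counts per gene, not whole and not normalised, for all genes and for protein-coding genes. The submitters' processing notes name GRCm38 and the study's methods GRCh38, while the identifiers are of mouse genes. Files of the authors' own DESeq2 comparisons (fold changes, p-values and CPM) were not used, and none of them sets these groups against each other.

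Counts were rounded to whole numbers. Genes were filtered with filterByExpr, normalised by TMM and fitted with edgeR 4.0.16 (R 4.3.3) by group, and HoipA-KO CD was compared with WT HFD by the quasi-likelihood test, with p-values adjusted by Benjamini-Hochberg across the 16743 genes. Standard errors are the log2 fold change divided by the square root of F. Estimated counts were 30513500 to 60540260 per library, so sampling error is small for all but genes near the floor, and intervals cover the spread between pools. The members and lists were chosen with earlier results of these data known. Named genes are the 10 largest changes in each direction with a mean of at least 10 CPM and no overlap, the 5 largest differences in CPM, the most abundant and most changed members of each list, genes the study names and cell type markers at or under the floor. Further genes were picked for their known roles with values in view. The alternatives tried were DESeq2 1.42.0, other normalisations and filters, protein-coding genes alone, more libraries in the fit, a replicate block and each library left out.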

Additional observations from a re-analysis of the deposited data

How the results depend on the processing

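The counts of 4610 genes called, 2109 higher and 2501 lower, depended on single libraries and on which other libraries shared the estimate of the spread. Leaving out 1 library gave 1732 to 4776 calls, 416 to 2257 of them higher and 1316 to 2519 lower, lowest without WT HFD replicate 2 and highest without WT HFD replicate 3, and the share of higher calls fell from 45.7% to 24.0% without WT HFD replicate 2. Where all 12 libraries shared one estimate of the spread, 999 genes were called (309 higher, 690 lower), and 2920 (1249 higher) with 11, without WT CD replicate 3. Deviations of pools with the same replicate number correlated at 0.35, 0.04 and -0.32, and those with different numbers at -0.44 to 0.44. With 3 pools per group, these values cannot decide whether the numbers pair the pools. The replicate block gave 3308 calls, 1403 higher and 1905 lower. An adjusted p under 0.01 left 1522 calls (437 higher, 1085 lower) and a log2 fold change over 1 left 2487 (967 higher, 1520 lower). Other normalisations, filters, protein-coding genes alone, 9 libraries and DESeq2's Wald test (5712 calls) gave totals within 1.5 times the count reported. None of the 4610 calls changed sign in any of these fits. Of the genes named, 10 that were not called changed sign with 1 library left out, where estimates ranged from -0.078 (without HoipA-KO CD replicate 3) to 0.10 for Rnf31, which was also at -0.0079 without WT HFD replicate 2, from -0.037 (without HoipA-KO CD replicate 2) to 0.54 for Ccl2, from -0.033 (without WT HFD replicate 1) to 0.53 for Cd74 and from -0.10 (without HoipA-KO CD replicate 2) to 0.55 for Col3a1, which was also at -0.028 without WT HFD replicate 1. They ranged from -0.24 (without HoipA-KO CD replicate 2) to 1.03 for Arntl, from -0.57 (without WT HFD replicate 3) to 0.44 for Ccl21a, from -0.15 (without HoipA-KO CD replicate 2) to 0.16 for Ccr2, from -0.13 (without HoipA-KO CD replicate 3) to 0.14 for Cox4i1, from -0.71 to 0.33 (without HoipA-KO CD replicate 2) for Dbp and from -0.21 to 0.040 (without HoipA-KO CD replicate 3) for Nampt. Ccl21a (0.01) and Ccr2 (0.02) lay so near 0 that they also changed sign with protein-coding genes alone (-0.017 and -0.023), 9 libraries (-0.014 and -0.015) and 12 libraries (-0.010 and -0.011), and Ccr2 with library size alone (-0.0065), at least 10 counts in every library (-0.0021) and the replicate block (-0.0066). The cause was not tested. Depth limits statements on genes near the floor, such as Il6, Calcr and Ly6g.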
